A study of Mus musculus with 10 samples.

Results

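The thiazide-sensitive sodium chloride cotransporter and the kinases and ubiquitin ligases that control it were followed as 8 genes, Slc12a3, Klhl3, Cul3, Wnk1, Wnk4, Stk39, Oxsr1 and Nedd4l, among the 13299 genes of the deposited table. The 8 genes were chosen from the genotype contrast of these same samples together with their known roles, so their levels and differences are given as a description and carry no p-value. Kidneys of 5 Rragc S74N/+ and 5 Rragc +/+ mice aged 1.5 years were compared by 3′ mRNA sequencing of whole tissue. Rragc S74N/+ mice carry, in every tissue and in 1 allele, a serine-to-asparagine change that makes RagC active, and RagC is a small GTPase that relays nutrient sufficiency to the kinase complex mTORC1. Rragc +/+ mice carry the unchanged allele, and the study names C57BL/6 as the strain of both. The study gives n as the number of animals, so the spread between samples is read as that between mice.

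In the distal convoluted tubule, the cotransporter NCC takes sodium and chloride up from the forming urine, and thiazide diuretics block it. WNK kinases sense chloride and potassium and phosphorylate the related kinases SPAK (Stk39) and OSR1 (Oxsr1), which phosphorylate NCC and so switch it on. The adaptor KLHL3 and the scaffold cullin 3 (Cul3) form a ubiquitin ligase that marks WNK kinases for degradation, and NEDD4-2 (Nedd4l) is a ubiquitin ligase that limits the abundance of NCC and of the epithelial sodium channel. Inherited changes in WNK1, WNK4, KLHL3 and CUL3 cause familial hyperkalaemic hypertension, and loss of SLC12A3 causes Gitelman syndrome. Most of this control acts on protein and phosphorylation, which were not measured here. The kidney also makes a short WNK1 without a kinase domain, and counts at the 3′ end do not part it from the long form.

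Promoters of 7 of the 8 genes were found in RefSeq (GRCm38.p6), each a window of 300 bases with 250 before the start of the gene. The 120 bases just before the start are shown for Slc12a3, Klhl3 and Wnk4, the members with the largest differences between genotypes, because they show how unlike these starts are. Capitals mark TATAAA, a core TATA box, and GGGCGG, a GC box, on either strand, and none of the marked motifs overlap.
Slc12a3, chr8:94329088-94329207, plus strand: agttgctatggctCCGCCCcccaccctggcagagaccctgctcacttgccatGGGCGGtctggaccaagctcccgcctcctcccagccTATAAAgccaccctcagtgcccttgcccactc
Klhl3, chr13:58113648-58113767, minus strand: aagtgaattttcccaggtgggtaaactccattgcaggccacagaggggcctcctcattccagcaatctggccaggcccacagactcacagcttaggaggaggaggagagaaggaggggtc
Wnk4, chr11:101260447-101260566, plus strand: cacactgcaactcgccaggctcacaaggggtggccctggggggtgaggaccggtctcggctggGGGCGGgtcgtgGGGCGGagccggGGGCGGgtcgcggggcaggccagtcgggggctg

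Slc12a3 was the single member with TATAAA, which began 32 bases before its start, and 13.6% of the 32851 promoters of the table held these letters. GGGCGG was found in 6 of the 7 windows and in 35.7% of all promoters. It occurred 2 times in Slc12a3, 3 times in Wnk4 and 5 times in Wnk1, and was not found in Klhl3. CACGTG, the core of the sites bound by TFEB and TFE3, factors that mTORC1 holds in the cytoplasm, was in none of the 7 windows and in 7.15% of all promoters. A match to letters is a description of the window only, and the absence of these letters says nothing of the factors.

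Reads assigned to the 13299 genes of the deposited table, as recovered from its values, ran from 4488493 to 5797251 per library. Both ends are from the 8 libraries in which whole reads were recovered. Rragc itself had 114 to 204 normalized counts in Rragc +/+ and 90.1 to 160 in Rragc S74N/+ kidneys, ranges that overlapped, and 3′ counts do not part the alleles. Of 13236 genes that passed a filter on low values (at least 5 normalized counts in at least 5 samples), 798 differed between genotypes at an adjusted p under 0.05 (limma on log2 of the normalized count plus 1), of which 457 were higher and 341 lower in Rragc S74N/+ kidneys. This count ran from 311 to 902 when 1 library was left out, and was 311 without Rragc +/+ replicate 2, 368 and 383 without Rragc +/+ replicates 1 and 4, and 371 without Rragc S74N/+ replicate 5. When each library was scaled to the same total, 718 genes were higher and 225 lower, so the shares of tested genes below hold for the fit used here. All 8 members passed the filter. Of them, 4 were past the threshold, against 6.03% of all tested genes. All 4 were lower, against 2.58% of tested genes called lower, and 0 were higher, against 3.45% called higher. The same 4, Slc12a3, Klhl3, Wnk4 and Wnk1, had groups that did not overlap, against 8.16% of tested genes in either direction, 4.01% lower and 4.15% higher. Because the members were chosen with this contrast known, nothing is read from these counts. The median log2 difference was -0.51 over the members and -0.01 over all tested genes. In whole tissue, fewer cells of a type and less RNA per cell cannot be told apart.

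Slc12a3, on chromosome 8 (ENSMUSG00000031766), encodes NCC. It had 4282, 4313, 3802, 4321 and 3559 normalized counts in Rragc +/+ replicates 1 to 5 and 901, 827, 996, 1410 and 1257 in Rragc S74N/+ replicates 1 to 5. Every Rragc S74N/+ kidney lay far under the lowest Rragc +/+ kidney, and the highest of them, replicate 4, still had less than the lowest control. The mean was 4056 ± 353 (SD, n = 5) against 1078 ± 247 (SD, n = 5), a level 73.4% lower, and the log2 difference was -1.94 ± 0.14 (SE; 95% limits -2.23 to -1.64). By mean level Slc12a3 ranked 79th of the 13299 genes of the deposited table in Rragc +/+ and 444th in Rragc S74N/+ kidneys.

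**Figure D1:**
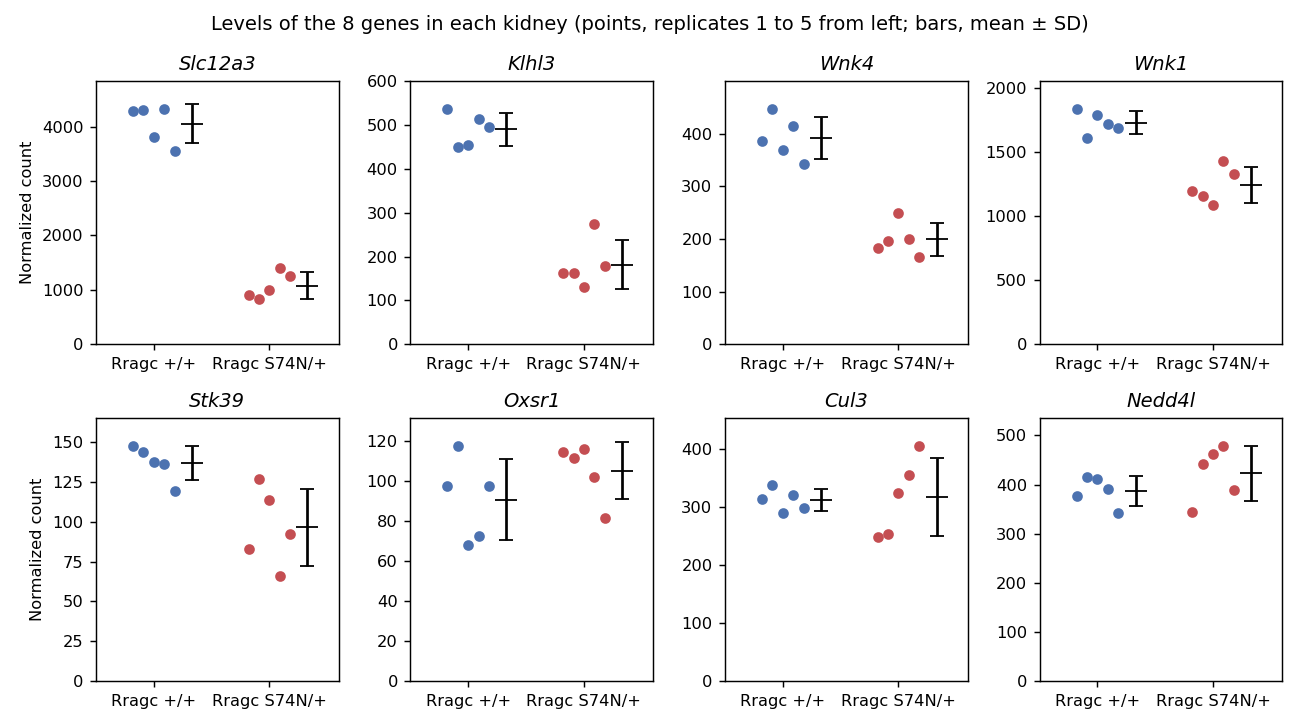
Normalized counts (vertical axes, from 0) of the 8 genes in each of 5 Rragc +/+ (blue) and 5 Rragc S74N/+ (red) kidneys, with the mean and SD of each group in black. The red and blue points are apart for Slc12a3, Klhl3, Wnk4 and Wnk1, and overlap for Stk39, Oxsr1, Cul3 and Nedd4l.

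The kinases at the head of the cascade were lower to different degrees. Wnk4, on chromosome 11 (ENSMUSG00000035112), the WNK kinase most closely tied to the distal nephron, had 386, 446, 369, 415 and 342 normalized counts in Rragc +/+ and 182.8, 196, 250, 201 and 166 in Rragc S74N/+ kidneys. The highest Rragc S74N/+ value, replicate 3, was under the lowest Rragc +/+ value. The log2 difference was -0.98 ± 0.13 (SE), a mean 1.97-fold lower. Wnk1, on chromosome 6 (ENSMUSG00000045962), which many tissues express, had 1837, 1609, 1795, 1720 and 1691 normalized counts in Rragc +/+ and 1200, 1156, 1092, 1434 and 1334 in Rragc S74N/+ kidneys. The groups were apart here too, but by a gap that was narrower on the log2 scale, and the log2 difference was -0.48 ± 0.10 (SE), a mean 1.39-fold lower. Wnk1 was past the threshold in the fit used here and not past it when the variance trend was left out or when edgeR was run on the reads of 8 samples.

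The kinases that act on NCC directly had groups that overlapped. Stk39, on chromosome 2 (ENSMUSG00000027030), had 148, 144, 137, 136 and 119 normalized counts in Rragc +/+ and 83.0, 127, 114, 66.2 and 92.3 in Rragc S74N/+ kidneys. In Rragc S74N/+ only replicate 2 lay inside the Rragc +/+ range, and the log2 difference was -0.53 ± 0.17 (SE; 95% limits -0.90 to -0.17). Stk39 was not past the threshold, but passed it without that replicate and with DESeq2 on the reads of 8 samples. Oxsr1, on chromosome 9 (ENSMUSG00000036737), had 97.3, 118, 68.2, 72.5 and 97.5 normalized counts in Rragc +/+ and 115, 111, 116, 102 and 81.6 in Rragc S74N/+ kidneys. The Rragc +/+ kidneys spread over the whole range of the other group, and the log2 difference was 0.23 ± 0.17 (SE; 95% limits -0.14 to 0.60).

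Of the ubiquitin ligases, the WNK adaptor was much lower and the others were not. Klhl3, on chromosome 13 (ENSMUSG00000014164), had 536, 449, 454, 513 and 496 normalized counts in Rragc +/+ and 163, 163, 130, 275 and 178 in Rragc S74N/+ kidneys. Replicate 4 was the highest of the Rragc S74N/+ group for Klhl3 as it was for Slc12a3 and Wnk1, and was still under every Rragc +/+ kidney. The log2 difference was -1.47 ± 0.16 (SE; 95% limits -1.81 to -1.12), a mean 2.69-fold lower.

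Cul3, on chromosome 1 (ENSMUSG00000004364), the scaffold that KLHL3 binds and that many other adaptors share, had 314, 338, 289, 320 and 298 normalized counts in Rragc +/+ and 248, 254, 324, 355 and 405 in Rragc S74N/+ kidneys. Its mean hardly differed (log2 difference 0.00 ± 0.14, SE; 95% limits -0.30 to 0.30), while its SD was 67.1 in Rragc S74N/+ against 19.2 in Rragc +/+ kidneys. The Rragc S74N/+ values lay on both sides of the Rragc +/+ range, 2 of them below and 2 above. Nedd4l (ENSMUSG00000024589) had 376, 415, 411, 390 and 341 normalized counts in Rragc +/+ and 343, 441, 462, 479 and 389 in Rragc S74N/+ kidneys. The groups overlapped, with a log2 difference of 0.12 ± 0.12 (SE; 95% limits -0.13 to 0.37).

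The order of the genes by level differed between genotypes. A 3′ library gives about 1 read per transcript end whatever the length, so levels of different genes were set side by side on the normalized count scale. Slc12a3 was above Wnk1 in 5 of 5 Rragc +/+ kidneys and in 0 of 5 Rragc S74N/+ kidneys. Klhl3 was above its partner Cul3 in 5 of 5 Rragc +/+ and in 0 of 5 Rragc S74N/+ kidneys, and the ratio of Klhl3 to Cul3 ran from 1.33 to 1.70 and from 0.401 to 0.774. Wnk4 was above Nedd4l in 4 of 5 Rragc +/+ and in 0 of 5 Rragc S74N/+ kidneys. Stk39 was above Oxsr1 in 5 of 5 Rragc +/+ and in 2 of 5 Rragc S74N/+ kidneys, with a median ratio of 1.52 and 0.983. Thus Slc12a3 went from the highest mean count of the 8 genes to just below Wnk1, and Klhl3 from above Cul3 to below it. Whether a count stands for the same number of transcripts in each gene was not tested, so this is an order of counts. It restates the levels of genes chosen with this contrast known. The share of other gene pairs that change order was not computed, so nothing more is read from it. Neighbours that overlapped in the Rragc +/+ order were Wnk4, with 342 to 446 normalized counts, and Nedd4l, with 341 to 415, and in the Rragc S74N/+ order Wnk1, with 1092 to 1434, overlapped Slc12a3, with 827 to 1410. Below them, Nedd4l, Cul3, Wnk4 and Klhl3 followed in that order by mean, each overlapping the next, and Oxsr1 overlapped Stk39 at the end.

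Other genes of the pathway were taken from a list of 25 regulators and partners of the WNK kinases, of which 23 were tested and Wnk2 and Wnk3 were not analysed here. Of the 23, 4 fell and 1 rose at an adjusted p under 0.05, and 18 did not pass. The median log2 difference of the list was -0.18. Of those that fell, Kcnj10 and Bsnd belong to the basolateral potassium and chloride exit that sets the intracellular chloride read by WNK kinases.

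Bsnd encodes barttin, an accessory subunit of basolateral chloride channels. Control kidneys averaged 78.5 ± 20.6 (SD, n = 5) and Rragc S74N/+ kidneys 36.7 ± 6.42 (SD, n = 5) normalized counts, and Bsnd fell with a log2 difference of -1.06 ± 0.21 (SE, limma adjusted p = 0.00897). All 5 Rragc S74N/+ kidneys, at 26.1 to 42.7 normalized counts, were below the lowest Rragc +/+ kidney, at 59.7.

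Kcnj10 encodes Kir4.1, the potassium channel through which the distal convoluted tubule reads plasma potassium. It was at 81.7, 89.5, 80.6, 87.3 and 82.6 normalized counts in Rragc +/+ and at 26.1, 45.6, 62.0, 49.9 and 39.8 in Rragc S74N/+ kidneys. It fell by 0.95 ± 0.20 (SE, limma adjusted p = 0.0140), with a narrow Rragc +/+ group and a Rragc S74N/+ group that was spread out below it. Kcnj16, which encodes the partner subunit Kir5.1 and is more widely expressed in tubules, did not pass the threshold (1512 to 2021 normalized counts against 1651 to 2011, log2 difference 0.03 ± 0.11, SE, limma adjusted p = 0.87).

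Ppp1r1a, which encodes an inhibitor of protein phosphatase 1 that is abundant in the distal nephron, fell by 0.89 ± 0.20 (SE, limma adjusted p = 0.0183), although Rragc S74N/+ replicate 3 had 865 normalized counts, inside the Rragc +/+ range of 738 to 1005. Nedd4, the ubiquitin ligase most like Nedd4l, rose from 805 to 1117 normalized counts in Rragc +/+ to 1277 to 2104 in Rragc S74N/+ kidneys, a log2 difference of 0.60 ± 0.14 (SE, limma adjusted p = 0.0213). At that threshold the calls of Bsnd and Kcnj10 held in every alternative fit to 8 or more samples. Those of Ppp1r1a and Nedd4 were lost without Rragc +/+ replicate 1 and without Rragc +/+ replicate 2, with adjusted p-values then over 0.05, and the list's count was 2 in both cases. Both calls were also lost without the variance trend, and that of Ppp1r1a without Rragc +/+ replicate 4 and without Rragc S74N/+ replicate 5.

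Among the 18 partners that did not pass, the most abundant besides Kcnj16 were Nedd8, Usp2 and Ppp1ca. Nedd8 encodes the modifier that activates cullins and had a log2 difference of -0.16 ± 0.10 (SE, limma adjusted p = 0.33). Usp2, a deubiquitinase known to act on the epithelial sodium channel, had a log2 difference of 0.11 ± 0.10 (SE, limma adjusted p = 0.53). Ppp1ca, a catalytic subunit of protein phosphatase 1, had a log2 difference of -0.20 ± 0.16 (SE, limma adjusted p = 0.46).

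**Figure D2:**
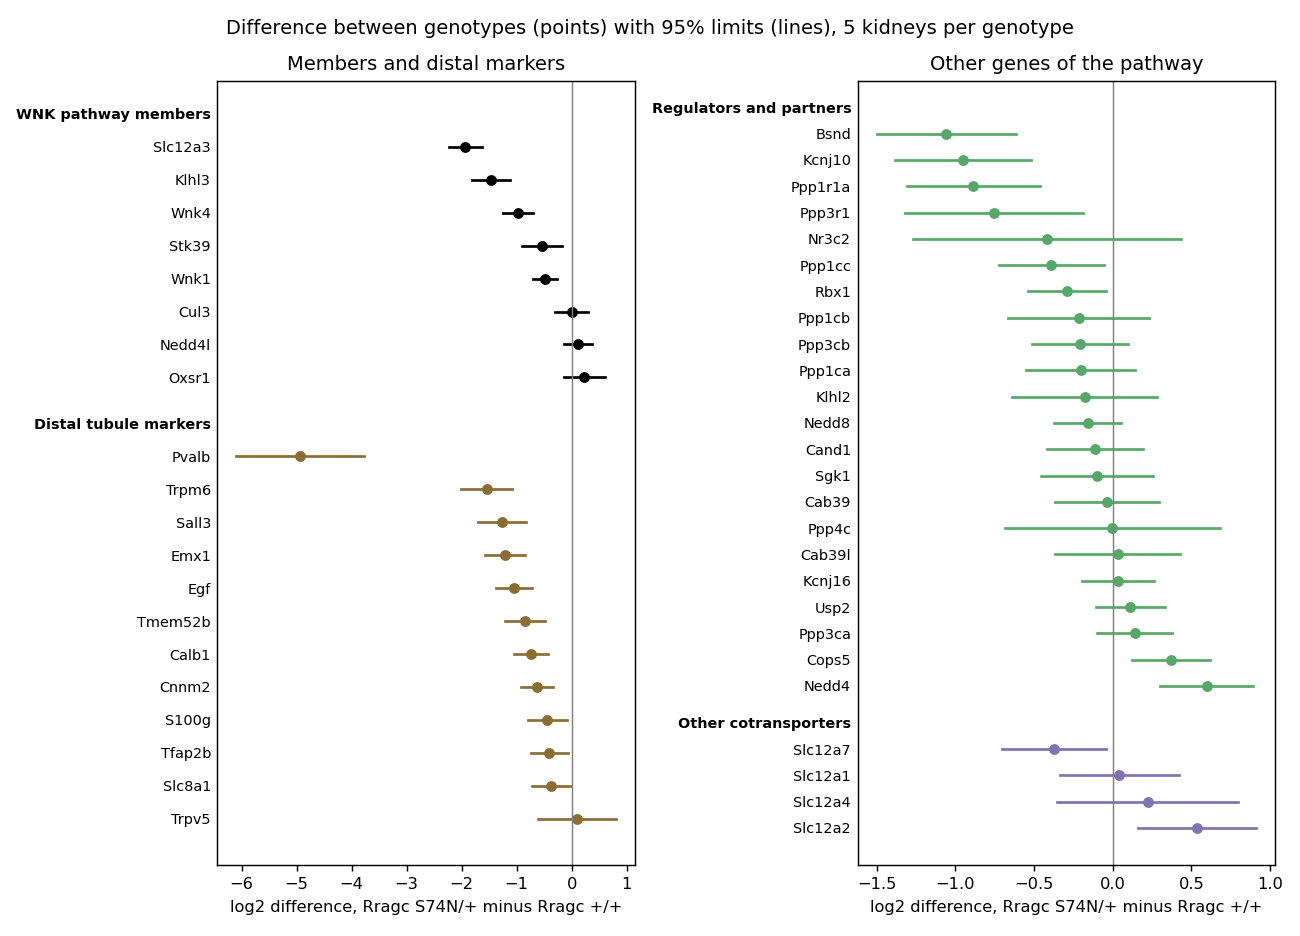
Log2 difference (Rragc S74N/+ minus Rragc +/+, horizontal axes) with 95% limits for the members and the distal convoluted tubule markers (left) and for the regulators, partners and other cotransporters (right, without the genes not reported here), 5 kidneys per genotype. Slc12a3, at -1.94, is the lowest member, Pvalb, at -4.93, is the lowest marker, and Bsnd, at -1.06, and Nedd4, at 0.60, are the ends of the list of partners.

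Of 6 other cation-chloride cotransporters, 5 were tested and Slc12a5 was not analysed here. None of the 5 passed the threshold (limma, 0 calls, with 2 at an unadjusted p under 0.05), edgeR called 0 on the reads of 8 samples, and DESeq2 called 1 on the same reads. Slc12a1 encodes NKCC2, the furosemide-sensitive transporter of the thick ascending limb, which the same kinases phosphorylate. It had 2724, 2739, 2868, 3842 and 3474 normalized counts in Rragc +/+ and 2343, 2608, 5062, 3609 and 2968 in Rragc S74N/+ kidneys, a log2 difference of 0.04 ± 0.18 (SE; 95% limits -0.34 to 0.42, limma adjusted p = 0.91). The ratio of Slc12a3 to Slc12a1 ran from 1.02 to 1.57 in Rragc +/+ and from 0.197 to 0.424 in Rragc S74N/+ kidneys. Slc12a3 thus had the higher count in each control and the lower count in each Rragc S74N/+ kidney.

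Slc12a2, which encodes the widely expressed cotransporter NKCC1, had a log2 difference of 0.54 ± 0.18 (SE, limma adjusted p = 0.0784). It was the gene called by DESeq2, and limma called it without Rragc S74N/+ replicate 3. Slc12a7, which encodes a potassium chloride cotransporter, had a log2 difference of -0.38 ± 0.16 (SE, limma adjusted p = 0.147).

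Most markers of the distal convoluted tubule were, like Slc12a3, lower in Rragc S74N/+ kidneys. All 12 listed markers were tested, 8 fell, 0 rose and 4 did not pass, and their median log2 difference was -0.79. Of the 12, 11 were at an unadjusted p under 0.05 (limma). Their summed level ran from 11009 to 13546 normalized counts in Rragc +/+ and from 7047 to 8802 in Rragc S74N/+ kidneys, without overlap. Each summed level here and below is weighted towards the most abundant genes of its list. In this list these were S100g, with a mean of 5240 in Rragc +/+ and 3940 in Rragc S74N/+ kidneys, and Egf, with 3201 and 1560. Rragc S74N/+ replicate 1, with the highest sum of its group, had 5409 of S100g. The part of a change in the number of distal cells in the values of the members was not tested.

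Pvalb, which encodes the calcium-binding protein parvalbumin of the early distal convoluted tubule, had 107, 145, 94.1, 131 and 86.6 normalized counts in Rragc +/+ and 0.932, 3.88, 3.00, 16.3 and 0.00 in Rragc S74N/+ kidneys. It was nearly absent from 4 of the 5 Rragc S74N/+ kidneys and at 0 in replicate 5. It fell with a log2 difference of -4.93 ± 0.55 (SE, limma adjusted p = 9.4e-05), and the mean of the group was 23.4-fold lower.

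Trpm6, the magnesium channel of the distal convoluted tubule, fell by 1.54 ± 0.22 (SE, limma adjusted p = 0.000867). Its 5 Rragc S74N/+ kidneys had 16.0 to 36.9 normalized counts and its 5 Rragc +/+ kidneys 79.1 to 88.2. The transcription factor genes Sall3 and Emx1 fell by 1.27 ± 0.21 (SE, limma adjusted p = 0.0026) and by 1.21 ± 0.17 (SE, limma adjusted p = 0.00109).

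Egf, the precursor of epidermal growth factor, which the thick ascending limb also makes, fell by 1.05 ± 0.16 (SE, limma adjusted p = 0.00134). Tmem52b, a membrane protein gene that the thick ascending limb also expresses, fell by 0.84 ± 0.17 (SE, limma adjusted p = 0.0096). Calb1, which encodes the calcium buffer calbindin-D28k of the late distal and connecting tubule, fell by 0.74 ± 0.15 (SE, limma adjusted p = 0.00918), and Cnnm2, a gene of magnesium handling, fell by 0.62 ± 0.14 (SE, limma adjusted p = 0.0150). All 8 markers that fell had groups that did not overlap.

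Of the markers of the calcium-reabsorbing late segment, Calb1 passed, as given above, and S100g, Slc8a1 and Trpv5 did not. S100g, which encodes calbindin-D9k, had a log2 difference of -0.44 ± 0.17 (SE, limma adjusted p = 0.118), Slc8a1, the sodium calcium exchanger, -0.37 ± 0.17 (SE, limma adjusted p = 0.185), and Trpv5, the apical calcium channel, 0.10 ± 0.33 (SE, limma adjusted p = 0.88). Tfap2b, a transcription factor gene of the distal tubule, had a log2 difference of -0.41 ± 0.16 (SE, limma adjusted p = 0.125). Trpv5 had 11.4 to 31.6 normalized counts over the 10 kidneys, too few for more than a wide interval.

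**Figure D3:**
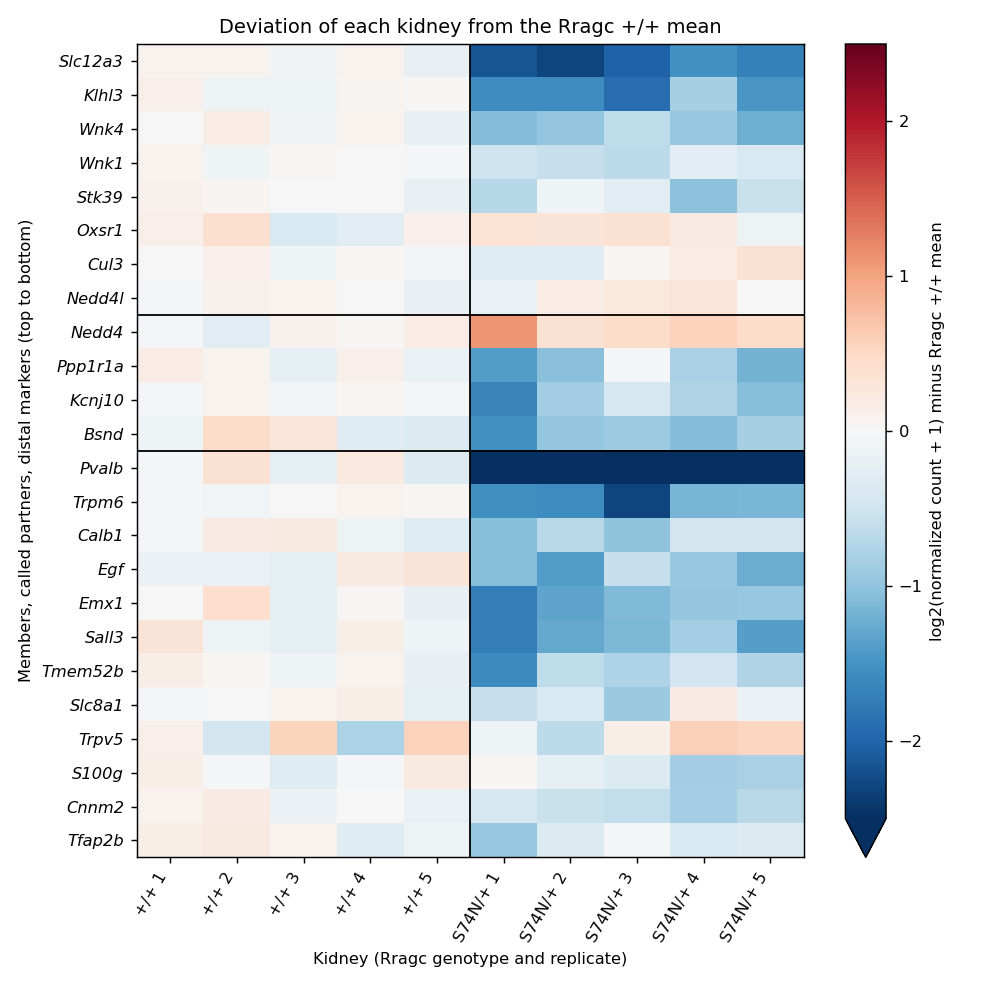
Deviation of each kidney (columns) from the Rragc +/+ mean on the log2 scale (colour, blue lower and red higher, cut at -2.5) for the 8 members, 4 of the 5 partners past the threshold and the 12 distal convoluted tubule markers (rows). The rows of Slc12a3, Klhl3, Wnk4, Pvalb, Trpm6, Emx1 and Sall3 are blue in all 5 Rragc S74N/+ kidneys, and the row of Cul3 goes from blue to red among them.

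The 4 members past the threshold did not keep 1 distance from the distal markers. For each kidney the mean log2 level of the 12 markers was subtracted from those of Slc12a3, Klhl3, Wnk4 and Wnk1. The other members were not set against the markers. The marker mean itself differed by -1.11 between genotypes on the log2 scale. Relative to it, Slc12a3 was at 3.41 to 3.66 in Rragc +/+ and at 2.39 to 3.05 in Rragc S74N/+ kidneys, a difference of -0.83 with groups that did not overlap. Klhl3 differed by -0.36 relative to the markers and Wnk4 by 0.13, and the groups of both overlapped. Wnk1 differed by 0.63, at 2.17 to 2.42 in Rragc +/+ and at 2.78 to 3.17 in Rragc S74N/+ kidneys. The marker mean depends on Pvalb, the marker with the largest difference. Over the 11 other markers, an alternative chosen after seeing the data, the marker mean differed by -0.76, and the members relative to it by -1.17 for Slc12a3, -0.70 for Klhl3, -0.22 for Wnk4 and 0.28 for Wnk1. Among these 4, the groups then overlapped for Wnk4 alone, whose difference changed sign. With and without Pvalb, Slc12a3 was lower and Wnk1 higher relative to the markers, without overlap. Wnk1 itself was lower in Rragc S74N/+ kidneys, so higher here means only that it fell less than the marker mean. Members and markers were chosen with earlier results of these data known. The share of all tested genes that would be apart on this scale was not computed, so nothing is read from these separations.

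Other cell types were followed with 7 lists of markers. Of 50 genes tested in them, 12 passed the threshold, 7 lower and 5 higher. In the thick ascending limb list, 3 of 8 fell and 0 rose, and 6 were at an unadjusted p under 0.05 (limma). The median log2 difference of that list was -0.86, against -0.79 for the distal convoluted tubule markers, so a fall was not particular to the distal list. Umod, which encodes uromodulin, fell by 1.55 ± 0.23 (SE, limma adjusted p = 0.0013), Ptger3, a prostaglandin receptor gene, by 2.05 ± 0.31 (SE, limma adjusted p = 0.00148) and Cldn10, a gene of the tight junction, by 0.72 ± 0.20 (SE, limma adjusted p = 0.0423). The summed level of that list ran from 8748 to 11719 normalized counts in Rragc +/+ and from 3718 to 9180 in Rragc S74N/+ kidneys, with overlap. Slc12a1, a member of this list, did not differ beyond its spread, as given above.

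Of the principal cell markers 0 of 8 passed (limma, with 1 at an unadjusted p under 0.05, 0 by edgeR and 1 by DESeq2 on the reads of 8 samples), and their sums ran from 1264 to 3643 and from 1053 to 2849 normalized counts. Of the intercalated cell markers 3 of 7 passed. Slc4a1, the anion exchanger of type A cells, was lower (log2 difference -1.19 ± 0.24, SE, limma adjusted p = 0.00918) and Slc26a4, pendrin of the other intercalated cells, higher (0.72 ± 0.20, SE, limma adjusted p = 0.0396), and the sums were 638 to 794 and 622 to 721. Of the proximal tubule markers 1 of 9 passed, Slc5a2, the glucose transporter SGLT2, which fell by 1.05 ± 0.14 (SE, limma adjusted p = 0.000476). The sums, at 108579 to 150544 and 114452 to 148449, overlapped, and most of them was Kap, with means of 94161 and 103466.

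Of the leukocyte markers 3 of 8 rose, among them Cd74 (1.05 ± 0.14, SE, limma adjusted p = 0.000506) and Ptprc (1.20 ± 0.18, SE, limma adjusted p = 0.00148), and their summed level was higher in every Rragc S74N/+ kidney, at 2376 to 3159 normalized counts against 1233 to 1670. The sums of endothelial markers, at 1445 to 1623 and 1294 to 1509, overlapped, and 1 of 5 passed (Plvap, lower). Those of podocyte markers, at 697 to 816 and 831 to 1048, did not, and 1 of 5 passed (Synpo, higher). The part of added leukocytes in the levels of the members was not tested.

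Covariation within genotypes was not used to choose the members. The mean of each genotype was removed from log2 of the normalized count plus 1, and Pearson r between genes was taken over the 10 kidneys. The genes of 1 kidney share its library, depth and tissue piece. The 28 pairs of members had a median r of 0.10 and a range from -0.74 to 0.86, and 17 pairs were above 0. Slc12a3 and Cul3 had r = 0.86, and r = 0.88 over the 8 kidneys that were left without the 2 farthest in Slc12a3. Cul3, which did not differ in mean, was thus the member most like the transporter within genotypes. The lowest 2 Rragc S74N/+ kidneys of both genes were replicates 1 and 2. Both genes were lower in Rragc S74N/+ replicates 1 to 3 than in replicates 4 and 5. These 2 sets lie in different ranges of title numbers, described below. Slc12a3 had 827 to 996 and 1257 to 1410 normalized counts in them, and Cul3 248 to 324 and 355 to 405. In Rragc +/+ kidneys the title ranges overlapped for both genes. The part of this split in r was not tested, and leaving out Rragc S74N/+ replicates 2 and 4 keeps it.

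Slc12a3 also had r = 0.71 with Wnk1 and r = 0.67 with Klhl3, and these were 0.44 and 0.36 without the 2 farthest kidneys, Rragc S74N/+ replicates 2 and 4, on which much of both relations rested. Wnk1 and Klhl3 had r = 0.86, and 0.60 without Rragc S74N/+ replicates 3 and 4. Wnk4 and Slc12a3 had r = 0.04, although both were lower in every Rragc S74N/+ kidney. Klhl3 and Stk39 had r = -0.74, and -0.17 without Rragc S74N/+ replicates 3 and 4. Replicate 4 had the highest Klhl3 of its group and the lowest Stk39, and without it alone r was -0.43.

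**Figure D4:**
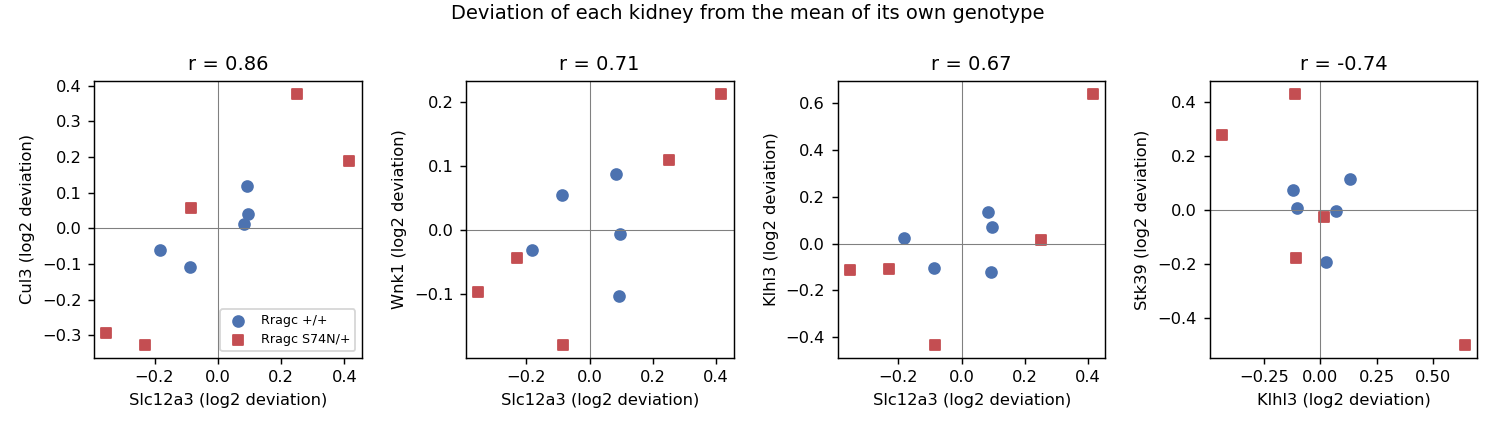
Deviation of each kidney from the mean of its own genotype on the log2 scale for 4 pairs of members, 5 Rragc +/+ (circles) and 5 Rragc S74N/+ (squares) kidneys in each plot, with Pearson r above. Slc12a3 and Cul3 rise together (r = 0.86), and the relation of Klhl3 to Stk39 (r = -0.74) has 1 Rragc S74N/+ kidney far from the others at the lower right.

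Among the 13235 other tested genes, those most like Slc12a3 within genotypes were Dennd2a (r = 0.91), Chadl (r = 0.91), Bnc2 (r = 0.90), Mkks (r = 0.90) and Uspl1 (r = 0.89), and none of these 5 passed the threshold between genotypes (limma adjusted p = 0.457, 0.156, 0.935, 0.687 and 0.721). Cul3 was 16th, Emx1 236th (r = 0.71), Wnk1 247th, Slc8a1 275th (r = 0.70) and Klhl3 378th in that order. S100g was near its other end, with r = -0.76. The order was drawn from 10 kidneys and is given as a description only.

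The numbers in the sample titles fell into 2 ranges, under and over 200, and nothing in the labels says what they stand for. Within the lower range the log2 difference of Slc12a3 was -2.19 ± 0.15 (SE) and within the upper range -1.56 ± 0.12 (SE). Klhl3 gave -1.65 ± 0.17 and -1.19 ± 0.18 (SE), Wnk4 -0.94 ± 0.18 and -1.04 ± 0.17 (SE), and Wnk1 -0.60 ± 0.14 and -0.30 ± 0.12 (SE). Each of these 4 was lower in Rragc S74N/+ in both ranges. Cul3 was on opposite sides, at -0.20 ± 0.17 and 0.29 ± 0.15 (SE), and the difference between ranges was not tested.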

How the data were processed

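Total RNA of whole kidney (300 ng per library, quality scores 6.2 to 7.0 and a mean of 6.7, per the labels) was made into oligo-dT primed 3′ libraries. Per the submitters' notes and the study's methods, the authors used FastQC 0.11.7, TopHat2 2.0.10, Bowtie 1.0.0, SAMtools 0.1.19, HTSeq 0.6.1 on the sense strand and build GRCm39, and the deposited signal values are counts that the authors divided by a DESeq2 size factor per sample. The lowest mean of any gene was 4.37, and the rule that left out others is not given in the sources used here. Here, log2(value + 1) was fitted with limma 3.58.1 (R 4.3.3, variance trend, genotype as the only term, Benjamini-Hochberg over 13236 genes, 63 removed, two-sided, threshold 0.05). Differences on this scale understate changes of genes with few counts. Whole reads were recovered in 8 columns, with 100% of values whole within 0.01 read, and the steps of Rragc +/+ replicate 5 and Rragc S74N/+ replicate 3 lay too near 1 to tell. edgeR 4.0.16 and DESeq2 1.42.0 were run on these 8 samples and, as an alternative chosen after seeing the data, on 10.

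The members and gene lists were chosen with earlier results of these data known. Named genes were all members, Rragc, every partner, cotransporter and distal marker past the threshold with the 4 most abundant that were not, the thick ascending limb markers past it, at most 2 genes of each other cell list, and the 5 genes most like Slc12a3. Cops5, Ppp3r1 and Cab39 are named outside this rule, after their values were seen. Results on some listed genes, which count in the totals of their lists, are not reported here. Replicates were numbered in order of deposit. The fit was tested on simulated data. Sequences are from RefSeq (GRCm38.p6), a build other than that of the counts. Y-linked genes were present in all 10 samples, with 4 tested and 0 called (limma, edgeR and DESeq2; 0 at an unadjusted p under 0.05).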

Additional observations from a re-analysis of the deposited data

Results flagged for a closer look

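Of 132 groups of 5 samples searched, 8 held a sample that stood apart from the other 4 by Dixon's test, where chance gives about 1 in 20, or 6.6. None was a member of the 8 genes. Nedd4 was high in Rragc S74N/+ replicate 1, at 2104 normalized counts against 1277 to 1462 in the other 4 of its group, all of them above the Rragc +/+ range. The same library was low for Nedd8, at 1103 against 1312 to 1363, and for Cldn10, at 182.8 against 379 to 459. Pvalb was high in Rragc S74N/+ replicate 4, at 16.3 against 0.00 to 3.88, and this kidney also had the highest Slc12a3, Klhl3 and Wnk1 of its group. Rragc +/+ replicate 2 was low for Usp2, at 690.8 against 820 to 865, and high for Slc12a7, at 282 against 167 to 200. Rragc +/+ replicate 3 was low for Cab39, which encodes a scaffold of SPAK and OSR1, at 97.9 against 116 to 121, and its summed principal cell markers were high, at 3643 against 1264 to 1744.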

How the results depend on the processing

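Member differences were recomputed under 26 alternatives per gene, 208 values in all, of which 0 turned the direction of a called value and 4 moved by more than the replicate spread. All 4 came from fits restricted to a range of title numbers, Slc12a3 in each range and Wnk1 and Cul3 in that over 200. The count of called members stayed within 1.5 times of 4 in all but 1 alternative, and ran from 4 to 5 over fits without 1 replicate. Within title numbers under 200, 2 members, 0 partners, 4 distal markers and 3 genes of the other cell lists were called, and 46 genes in all. Within title numbers over 200, with fewer samples, 3 members, 2 partners, 7 distal markers, 12 genes of the other cell lists and 617 genes in all were called. Without the variance trend 391 genes and 2 partners were called, and at an adjusted p under 0.01 187 genes and 1 partner. DESeq2 called 1402 genes on 8 samples and 1354 on 10, and 1 other cotransporter in both. Leaving out 1 replicate gave 311 to 902 genes, the fits that moved it by over 1.5 times being those that left out Rragc +/+ replicates 1 (368), 2 (311) or 4 (383), or Rragc S74N/+ replicate 5 (371). It gave 2 to 5 partners, with 2, 2 and 3 without Rragc +/+ replicates 1, 2 and 4, and 0 to 1 cotransporters, with 1 without Rragc S74N/+ replicate 3. The distal markers ran from 7 to 9 and the other cell lists from 8 to 13. The median r between members ran from -0.020, without Rragc S74N/+ replicate 1, to 0.18, without Rragc S74N/+ replicate 5. The causes were not tested. Scaling to equal library totals called 943 genes, of which 76.1% were higher, where the authors' size factors gave 57.3%, moved the median of all genes to 0.06 and put Slc12a3 at -1.86, Klhl3 at -1.39, Wnk4 at -0.90 and Wnk1 at -0.40. Cops5 and Ppp3r1, not past the threshold here, passed it in 3 and 4 alternatives. No paired analysis was possible because the labels give no replicate numbers and the numbers used follow the order of deposit.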
